A study of Mus musculus with 9 samples.

Results

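Retinoic acid (RA), the active form of vitamin A, acts through nuclear receptors that sit on DNA as pairs of an RA receptor (RAR) and a retinoid X receptor (RXR). Without RA the pair holds corepressors such as NCOR1, which recruit histone deacetylases. On binding RA it exchanges them for coactivators such as NCOA1 and NCOA3, which recruit histone acetyltransferases. In the testis RA is known for driving spermatogonia to differentiate, and RXRs also pair with receptors for other ligands.

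The transcripts described here are those of 9 named genes among the 24505 of the deposited table: the RARs Rara, Rarb and Rarg, the RXRs Rxra, Rxrb and Rxrg, the corepressor Ncor1, and the coactivators Ncoa1 and Ncoa3. They were chosen by name and role, with earlier results of these data known. mRNA was measured by sequencing in 9 libraries, 3 each of intermediate and type B (In/B) spermatogonia from postnatal day (P) 17, RA-sufficient preleptotene (PL) spermatocytes from P19 and RA-deficient PL spermatocytes from P19. All mice were Uchl1-eGfp males, outcrossed to CD-1, in which a Uchl1 transgene marks germ cells with EGFP, and the cells were sorted by that fluorescence after testes of several pups of a litter had been pooled. In/B cells were taken as EGFP-bright and PL cells as EGFP-dim, so the gate differed between these stages along with age. All had been dosed with WIN 18,446, an inhibitor of RA synthesis, at 100 µg per g body weight daily from P1, and had received 10 µl of RA at 10 µg per µl at P11. The inhibitor was then withdrawn, except in the RA-deficient PL mice, which went on receiving it. No group was free of the drug or of injected RA.

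The libraries held between 12612959 and 27042274 counts, and 3 counts corresponded to between 0.113 and 0.221 CPM (counts scaled to a common library size with the TMM method over all libraries). The 3 RA-deficient PL libraries were alike in depth, at 25048240 to 27042274 counts. They had a count for fewer genes than the others, 14769 to 15327 against 16758 to 18434. In their spermatogonial markers these 3 libraries were not alike. Kit, the stem cell factor receptor of differentiating spermatogonia, stood at 404, 327 and 331 CPM in In/B and at 41.0, 32.8 and 20.2 CPM in RA-sufficient PL. In RA-deficient PL it stood at 561, 521 and 20.3 CPM, so that replicates 1 and 2 lay above every In/B library and replicate 3 lay among the RA-sufficient PL libraries. Dmrt1, a transcription factor of spermatogonia, split the same libraries at 460, 485 and 111 CPM, against 534 to 711 CPM in In/B and 72.1 to 76.8 CPM in RA-sufficient PL. The 6 markers of differentiating spermatogonia summed to 1396, 1367 and 330 CPM in RA-deficient PL, 1305 to 1693 CPM in In/B and 286 to 383 CPM in RA-sufficient PL. The 8 markers of preleptotene spermatocytes were high in all 3 RA-deficient libraries, at 4727 to 6367 CPM, against 1135 to 1344 CPM in In/B. In RA-sufficient PL they summed to 3237 to 4927 CPM. Germ cell markers in general, 6 in number, summed to 7784 to 8304 CPM in RA-deficient PL. The sums were 4272 to 5752 CPM in RA-sufficient PL and 5464 to 6058 CPM in In/B. Among these markers Uchl1, the gene of the sorting transgene, averaged 1535 CPM in RA-deficient PL, 521 in RA-sufficient PL and 2820 in In/B. RA-sufficient PL libraries carried more RNA of other testis cells: 9 Sertoli cell markers summed to between 2879 and 3741 CPM there, against 67.3 to 352 CPM in In/B and 290 to 517 CPM in RA-deficient PL. Peritubular and stromal markers, 7 in number, summed to between 893 and 1226 CPM in RA-sufficient PL and to at most 174 CPM in any other library, but Sparc, which other cells also express, made up most of that sum (954 CPM on average, against 53.1 in In/B and 51.6 in RA-deficient PL). Between the PL groups 1 of the 7 was called in each direction and 5 were not called, and Col1a1 went the other way, at 11.7 CPM in RA-sufficient PL against 56.7 in In/B and 64.4 in RA-deficient PL. All 9 Sertoli cell markers were called higher in RA-sufficient PL than in either other group. The part of these cells in the values below was not tested, nor was that of spermatogonia or of germ cells as a whole. In sorted bulk samples, fewer cells of a type and less RNA per cell cannot be told apart.

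The sequences below show what an RA response element looks like and which receptor gene holds one near a start site. They are 150 bases before a RefSeq start, found without mismatch in the NCBIM37 build of these data, and capitals mark a DR5, a pair of half-sites in the same direction with a spacer of 5 bases. Rarb carries the well-known element of this kind, Cyp26a1 encodes an enzyme that degrades RA and is induced by it, and Rarg had the larger change of the 2 receptor genes called between the PL groups.
Rarb, chr14:17407991-17408140, minus strand: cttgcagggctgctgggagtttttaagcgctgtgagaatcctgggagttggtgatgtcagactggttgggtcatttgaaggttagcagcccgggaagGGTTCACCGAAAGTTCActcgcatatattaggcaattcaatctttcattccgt
Cyp26a1, chr19:37772148-37772297, plus strand: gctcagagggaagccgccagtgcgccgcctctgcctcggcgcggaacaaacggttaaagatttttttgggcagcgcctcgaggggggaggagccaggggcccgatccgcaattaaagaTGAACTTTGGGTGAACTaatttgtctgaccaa
Rarg, first start, chr15:102087954-102088103, minus strand: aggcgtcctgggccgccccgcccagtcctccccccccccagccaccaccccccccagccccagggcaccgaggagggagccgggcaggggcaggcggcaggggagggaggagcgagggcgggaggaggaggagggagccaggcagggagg
Rarg, internal start, chr15:102076932-102077081, minus strand: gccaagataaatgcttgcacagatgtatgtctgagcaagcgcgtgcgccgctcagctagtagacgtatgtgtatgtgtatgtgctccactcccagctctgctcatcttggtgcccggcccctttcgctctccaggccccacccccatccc

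In Rarb the match lay at positions -53 to -37 from the start, and in Cyp26a1 at -32 to -16 on the opposite strand, where it reads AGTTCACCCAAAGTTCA. The half-sites searched, on both strands, were AGGTCA, also GGGTCA, the variant AGTTCA and the variant GGTTCA, in windows from 250 bases before to 50 bases after each start. A DR5 was present in 32 of 32851 windows (0.0974%), a DR1, with a spacer of 1 base, in 73 (0.222%) and a DR2, with a spacer of 2 bases, in 88 (0.268%). Windows were found for 8 of the 9 genes, 16 in all, and the DR5 of Rarb was the single match among them to any of these patterns. Of the 13 genes listed as induced by RA, 8 had windows, and 2 of their 14 windows held a DR5, those of Rarb and Cyp26a1. A match describes the letters and is not evidence that a receptor binds there.

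Among the RARs, transcripts of Rarg were abundant in the In/B libraries, low in the RA-sufficient PL libraries and abundant in the RA-deficient PL libraries. RARG (chr15:102065369-102087948, minus strand) is the RA receptor known from spermatogonia. Rarg stood at 108, 90.7 and 82.4 CPM in In/B, at 19.7, 23.4 and 21.1 CPM in RA-sufficient PL, and at 81.5, 82.4 and 50.8 CPM in RA-deficient PL. Every RA-sufficient library lay below every other library, and replicate 3 of RA-deficient PL, the one with low Kit, lay between the groups. RA-deficient replicates 1 and 2, those with high Kit and Dmrt1, lay close to the lowest In/B library. The part of spermatogonial RNA in these Rarg values was not tested. From In/B to RA-sufficient PL Rarg fell by 2.08 on the log2 scale (SE 0.16, adjusted p = 2.24e-05, edgeR). In RA-deficient PL it was higher than in RA-sufficient PL by 1.74 on the log2 scale (SE 0.23, adjusted p = 0.00338). Against In/B the RA-deficient difference was -0.22 (SE 0.22, adjusted p = 0.477). With replicate 3 as the only RA-deficient library, the difference from RA-sufficient PL was 1.25 (adjusted p = 0.0177) and that from In/B was -0.81 (adjusted p = 0.0249), on the assumption that this library varied like the others. The call against RA-sufficient PL held without it and with it alone, while the comparison with In/B depended on which RA-deficient libraries were used.

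Rara, by contrast, passed the test in no comparison. RARA (chr11:98789132-98836256, plus strand) is the RA receptor known from both Sertoli cells and germ cells. It stood at 60.3, 37.2 and 39.4 CPM in In/B, at 57.8, 57.8 and 59.8 CPM in RA-sufficient PL, and at 47.3, 37.2 and 51.1 CPM in RA-deficient PL. The PL groups did not overlap, and In/B overlapped both. RA-sufficient PL exceeded In/B by 0.41 on the log2 scale (SE 0.20, adjusted p = 0.107), and RA-deficient PL differed from In/B by 0.15 (SE 0.24, adjusted p = 0.682). Mean CPM of these 2 groups was 45.2 in RA-deficient PL and 45.6 in In/B, so the sign of this small difference depended on the scaling. Between the PL groups the difference was -0.38 (SE 0.17, adjusted p = 0.154). Without In/B replicate 1, which had the highest Rara of its group, the RA-sufficient difference from In/B was 0.66 (adjusted p = 0.00375).

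Rarb transcripts were almost undetected. RARB (chr14:17263356-17651381, minus strand) is itself a widely known product of RA signalling, through the DR5 shown above. Its counts were 4, 5 and 15 in In/B, 2, 4 and 4 in RA-sufficient PL, and 0, 1 and 1 in RA-deficient PL. The filter on low counts left Rarb out. Without the filter no comparison passed in edgeR (adjusted p = 0.163 to 0.397), nor did any in DESeq2 (adjusted p = 0.144 to 0.439), so that a difference between groups was not detectable at this depth.

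Among the RXRs, Rxra was highest in In/B, lowest in RA-sufficient PL and between these in RA-deficient PL. RXRA (chr2:27531960-27618477, plus strand) is the partner of RARs in many tissues. Rxra stood at 135, 98.6 and 102 CPM in In/B, at 12.0, 23.2 and 17.6 CPM in RA-sufficient PL, and at 44.2, 42.7 and 30.7 CPM in RA-deficient PL. No pair of groups overlapped. Rxra fell from In/B by 2.61 on the log2 scale in RA-sufficient PL (SE 0.26, adjusted p = 5.79e-05) and by 1.35 in RA-deficient PL (SE 0.21, adjusted p = 0.00201). The RA-deficient level exceeded the RA-sufficient level by 1.16 (SE 0.29, adjusted p = 0.0279). This last call was less firm than that of Rarg, since it was lost in 6 of 14 alternatives, among them the removal of RA-sufficient PL replicate 1 (adjusted p = 0.0749) or 3 (adjusted p = 0.0970) or of RA-deficient PL replicate 1 (adjusted p = 0.0841) or 2 (adjusted p = 0.0819). With RA-deficient PL replicate 3 alone the difference was 0.80 (adjusted p = 0.168).

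Rxrb was called in no comparison. RXRB (chr17:34168757-34175338, plus strand) is an RXR known for its role in Sertoli cells of the testis. Rxrb stood at 87.6, 100.4 and 83.4 CPM in In/B, at 66.5, 94.1 and 115 CPM in RA-sufficient PL, and at 94.6, 109 and 127 CPM in RA-deficient PL. All groups overlapped, and the RA-sufficient libraries were the most spread. The difference of RA-sufficient PL from In/B was 0.08 on the log2 scale (SE 0.19, adjusted p = 0.728), and it was -0.11 without RA-sufficient PL replicate 3. RA-deficient PL exceeded In/B by 0.46 (SE 0.15, adjusted p = 0.0459), under the 2-fold change that a call required, and this passed in 5 of 14 alternatives (highest adjusted p = 0.515). The PL groups differed by 0.26 (SE 0.20, adjusted p = 0.383). Rxrg (chr1:169528515-169569754, plus strand), an RXR best known from muscle and brain, had 6, 2 and 1 counts in In/B, 0, 1 and 9 in RA-sufficient PL and 0 in each RA-deficient library. The filter left Rxrg out as well, and without it no comparison passed in edgeR (adjusted p = 0.132 to 0.946). No fold change is given.

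**Figure D1:**
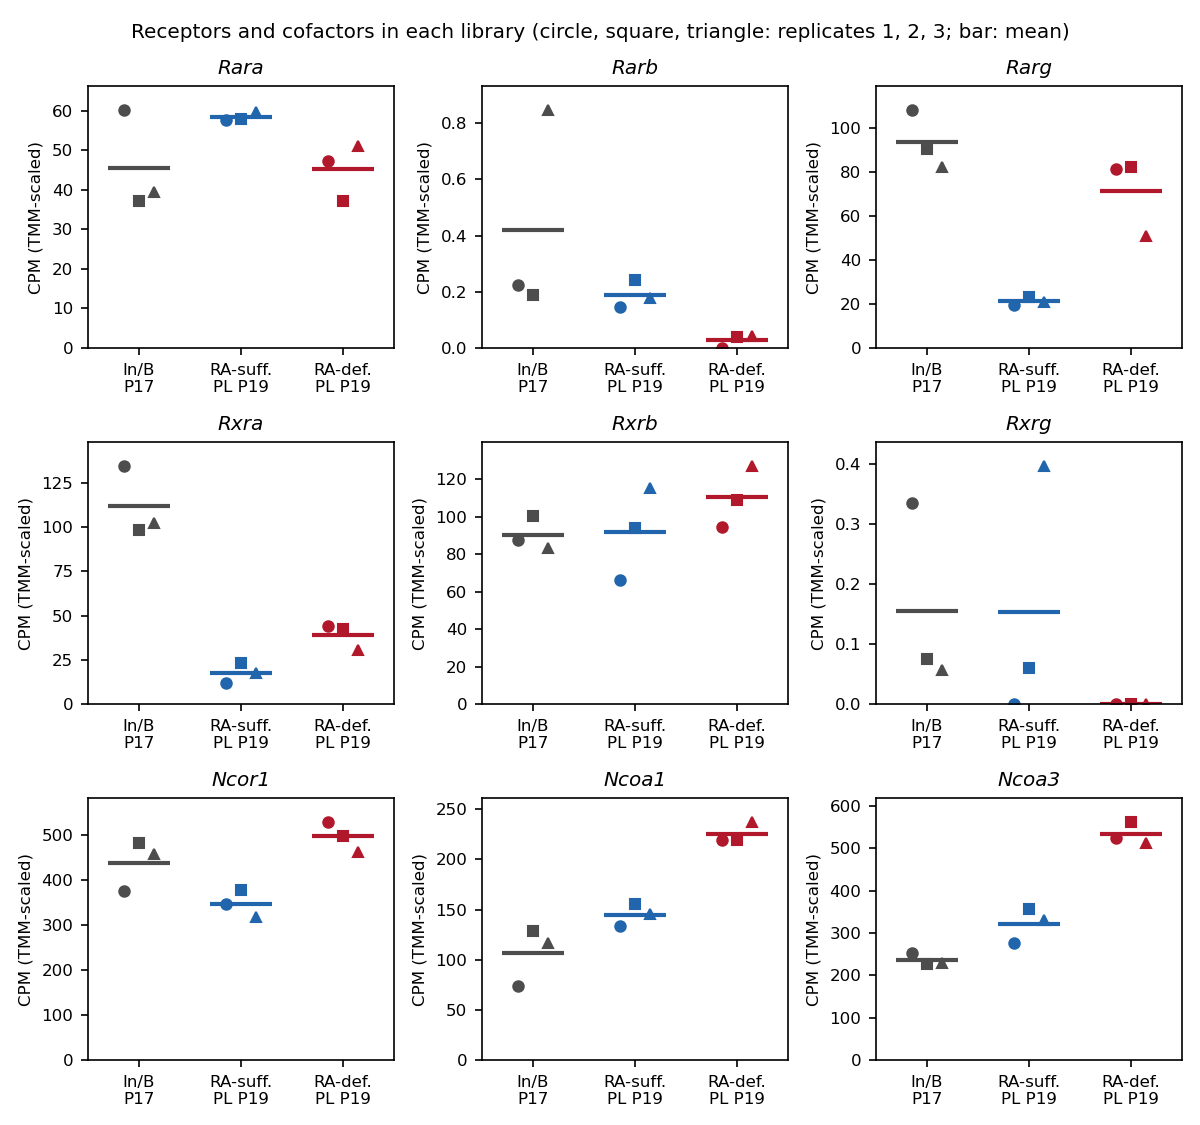
Each panel plots 1 gene, with TMM-scaled CPM on a linear axis from 0, the 3 groups along the x axis, a point per library (circle, square and triangle for replicates 1, 2 and 3) and a bar at the mean. Rarg and Rxra were lowest in RA-sufficient PL, at 19.7 to 23.4 and 12.0 to 23.2 CPM, while Ncoa1 and Ncoa3 were highest in RA-deficient PL, and Rarb and Rxrg lay under 1 CPM throughout.

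The cofactors moved in another pattern, with the highest mean transcript levels in RA-deficient PL. Ncoa3 (chr2:165818136-165898742, plus strand) encodes a coactivator of the p160 family that binds liganded nuclear receptors. It stood at 252, 228 and 229.8 CPM in In/B, at 276, 356 and 331 CPM in RA-sufficient PL, and at 526, 563 and 512 CPM in RA-deficient PL. The groups stood in this order without overlap. Ncoa3 exceeded the In/B level by 0.50 on the log2 scale in RA-sufficient PL (SE 0.13, adjusted p = 0.00782) and by 1.34 in RA-deficient PL (SE 0.11, adjusted p = 1.15e-04), where it was called. Between the PL groups the difference was 0.73 (SE 0.11, adjusted p = 0.00529), and 0.68 with RA-deficient PL replicate 3 alone (adjusted p = 0.0569). Exons of Ncoa3 share 154 bases with Sulf2 on the opposite strand, and it is not given whether counting used strand.

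Ncoa1 (chr12:4247363-4484060, minus strand), a coactivator of the same family, stood at 74.0, 129 and 116 CPM in In/B, at 134, 155 and 146 CPM in RA-sufficient PL, and at 219.7, 219 and 238 CPM in RA-deficient PL. The groups were again in order without overlap, and In/B replicate 1 was the lowest library. In RA-deficient PL, Ncoa1 rose over In/B by 1.26 on the log2 scale (SE 0.19, adjusted p = 0.00183). It was higher in RA-deficient than in RA-sufficient PL by 0.63 (SE 0.10, adjusted p = 0.00629). RA-sufficient PL exceeded In/B by 0.51 (SE 0.19, adjusted p = 0.0422), and this passed in 7 of 13 alternatives only, with adjusted p = 0.0578 without In/B replicate 1, 0.0628 without In/B replicate 3, 0.123 without RA-sufficient PL replicate 2 and 0.0890 without RA-sufficient PL replicate 3.

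Ncor1 (chr11:62129928-62272043, minus strand), the corepressor of unliganded receptors, stood at 374, 481 and 457 CPM in In/B, at 346, 378 and 317 CPM in RA-sufficient PL, and at 529, 497 and 463 CPM in RA-deficient PL. In/B overlapped both PL groups, which did not overlap each other. The PL groups differed by 0.51 on the log2 scale, with the RA-deficient group higher (SE 0.12, adjusted p = 0.0206), and this passed in 7 of 14 alternatives. It was lost without any single RA-sufficient library (adjusted p = 0.0503, 0.0554 and 0.0796) and without RA-deficient PL replicate 1 (adjusted p = 0.0657) or 2 (adjusted p = 0.0586). Against In/B the difference was -0.27 in RA-sufficient PL (SE 0.13, adjusted p = 0.0837), which passed without In/B replicate 1 (adjusted p = 0.0199). It was 0.35 in RA-deficient PL (SE 0.12, adjusted p = 0.0467), which passed in 4 of 14 alternatives and was lost on removal of In/B replicate 1, 2 or 3 or of RA-deficient PL replicate 1 or 2 (adjusted p = 0.0979 to 0.167). Ncor1 exons share 87 bases with Pigl and 1 base with Ttc19 on the opposite strand.

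Read against all genes, the members' calls were not more frequent in the comparison of RA-sufficient PL with In/B. There 2 of 7 tested members were called, both lower, where 45.4% of all genes tested were called and 19.3% were called lower. The ranges of the groups did not overlap for 4 of 7 members, against 71.5% of all genes, and none of the 7 was called higher, against 26.1% of all genes. By adjusted p alone 4 of 7 passed, against 65.0% of all genes. In RA-deficient PL compared with In/B, 3 of 7 were called, against 23.2% overall. They were Rxra, lower as were 11.8% of all genes, and Ncoa1 and Ncoa3, higher as were 11.4%. By adjusted p alone 5 of 7 passed, against 36.7% of all genes, and 4 of 7 did not overlap, against 54.6%. One of those 4 was Rarg, whose lowest In/B and highest RA-deficient values were both 82.4 CPM when rounded. Between the PL groups 2 of 7 were called, both higher in RA-deficient PL, against 15.5% of all genes either way and 4.47% called higher. By adjusted p alone 5 of 7 passed, against 23.6% of all genes. Here 6 of 7 did not overlap, all but Rxrb, against 47.4% of all genes. The median difference over the 7 members was 0.63 on the log2 scale between the PL groups, against -0.09 over all genes tested. Over the 6 general germ cell markers it was 0.43, with all 6 positive and 1 called. Each group enters 2 of these comparisons, so they are not independent of each other.

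**Figure D2:**
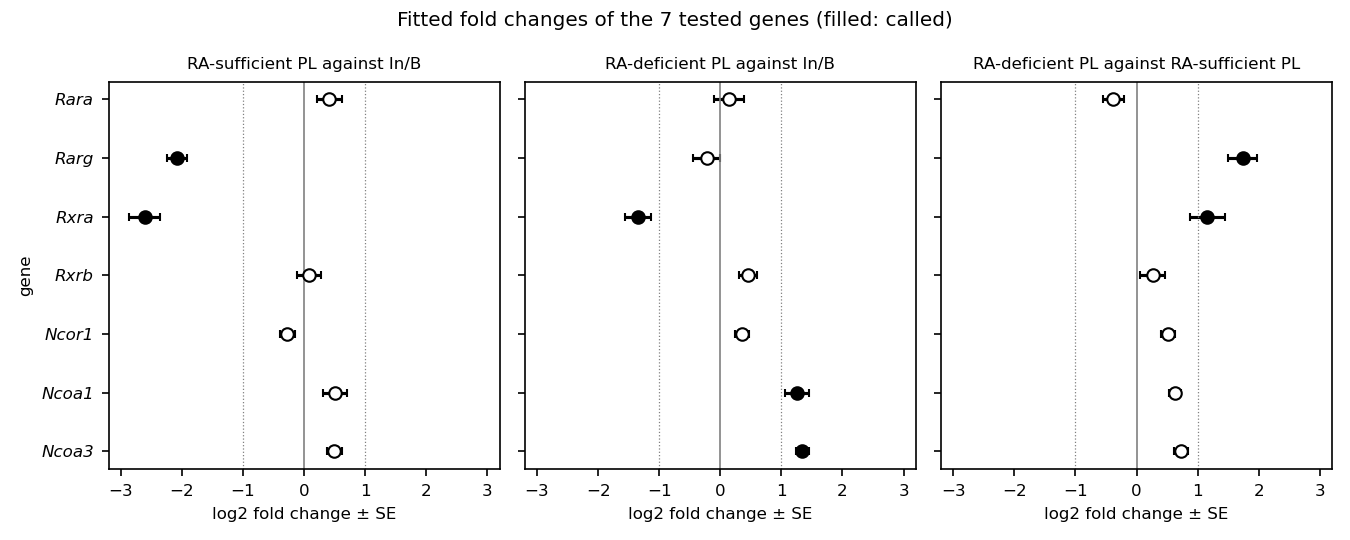
Each panel is 1 comparison, with the fitted log2 fold change on the x axis and the 7 tested genes on the y axis. Points are edgeR estimates, bars are 1 SE, dotted lines mark a 2-fold change, and filled points were called: Rarg and Rxra in the first panel, Rxra, Ncoa1 and Ncoa3 in the second, and Rarg and Rxra in the third.

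Per kilobase of exon, the order of transcript levels differed between the groups. In In/B the mean level was 34.1 CPM per kb for Ncor1, 30.0 for Ncoa3, 24.5 for Rxrb, 22.8 for Rarg, 20.5 for Rxra, 14.5 for Ncoa1 and 9.98 for Rara (n = 3). Of these neighbours Ncor1 and Ncoa3 overlapped, as did Rxrb with Rarg, Rarg with Rxra, and Ncoa1 with Rara. In RA-sufficient PL the order was Ncoa3 at 40.7, Ncor1 at 27.1, Rxrb at 24.9, Ncoa1 at 19.8, Rara at 12.8, Rarg at 5.21 and Rxra at 3.22 CPM per kb, and only Ncor1 with Rxrb and Rxrb with Ncoa1 overlapped. Rara thus stood above Rarg in RA-sufficient PL and below it in In/B, in both groups without overlap. In RA-deficient PL the order was Ncoa3 at 67.6, Ncor1 at 38.7, Ncoa1 at 30.8, Rxrb at 29.8, Rarg at 17.4, Rara at 9.88 and Rxra at 7.17 CPM per kb, where only Ncoa1 and Rxrb overlapped. Rarb and Rxrg came last in every group.

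The make-up of the receptor pool was compared within libraries, which leaves out differences in scaling. Rarg made up 66.6, 73.0 and 69.3% of the summed RAR level per kb in In/B, 27.5, 30.9 and 28.1% in RA-sufficient PL, and 65.7, 71.1 and 52.5% in RA-deficient PL. All RA-sufficient libraries were below all others. The mean share was 69.6% ± 3.21 (SD, n = 3) in In/B, 28.8% ± 1.84 in RA-sufficient PL and 63.1% ± 9.56 in RA-deficient PL, and the groups differed by an exact permutation test over 1680 arrangements (p = 0.0143, adjusted over 3 quantities 0.0143). The summed RAR level itself was 32.9 ± 5.82, 18.1 ± 0.51 and 27.3 ± 3.40 CPM per kb (SD, n = 3) in these groups.

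Rxrb made up 48.8, 60.0 and 54.6% of the summed RXR level in In/B, 89.1, 85.6 and 90.2% in RA-sufficient PL, and 76.0, 79.1 and 86.0% in RA-deficient PL. The PL libraries all lay above the In/B libraries. The means were 54.5% ± 5.60, 88.3% ± 2.40 and 80.3% ± 5.11 (SD, n = 3), with an exact permutation p of 0.00714 over the groups (adjusted 0.0107). Rxrb itself was called in neither comparison with In/B, whereas Rxra was called lower in both.

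The ratio of Ncor1 to the sum of Ncoa1 and Ncoa3, per kb and on the log2 scale, was -0.53, -0.31 and -0.34 in In/B, -0.98, -1.17 and -1.32 in RA-sufficient PL, and -1.23, -1.38 and -1.43 in RA-deficient PL. It was lower in every PL library than in every In/B library, and the PL groups overlapped. The means were -0.39 ± 0.12, -1.15 ± 0.17 and -1.35 ± 0.11 (SD, n = 3), with an exact permutation p of 0.00714 over the groups (adjusted 0.0107). Between any single pair of groups of 3 the smallest two-sided exact permutation p is 0.10, so no pair could reach 0.05. The exceptions to that smallest value were the Rarg share in RA-deficient PL against In/B, with an exact permutation p of 0.40, and the Rxrb share and the cofactor ratio between the PL groups, each with an exact permutation p of 0.20.

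**Figure D3:**
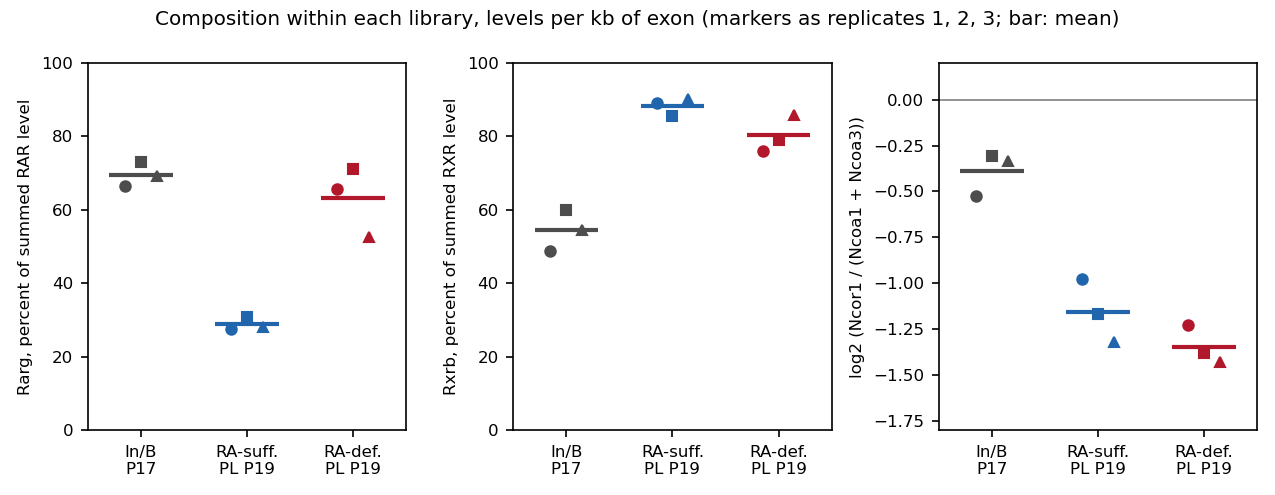
The panels plot, for each library, the share of Rarg in the summed RAR level, the share of Rxrb in the summed RXR level (both in percent, on axes from 0 to 100) and the log2 ratio of Ncor1 to Ncoa1 plus Ncoa3, with a bar at the group mean. The Rarg share was 27.5 to 30.9% in RA-sufficient PL and at least 52.5% in every other library, while the share of Rxrb and the cofactor ratio set In/B apart from both PL groups.

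Further coregulators of these receptors, 20 genes in all, were tested in every comparison. Between the PL groups 4 were called higher and 3 lower in RA-deficient PL, against 15.5% of all genes called either way, with a median difference of 0.29 on the log2 scale against -0.09 over all genes. Ncoa6, a subunit of a histone methyltransferase complex that binds nuclear receptors, stood at 631, 646 and 706 CPM in RA-deficient PL and at 310, 305 and 283 CPM in RA-sufficient PL, a difference of 1.14 (SE 0.11, adjusted p = 0.00111). The histone acetyltransferase Ep300 was higher in RA-deficient PL by 1.13 (SE 0.17, adjusted p = 0.00450), at 779, 858 and 991 CPM against 305, 472 and 422 CPM. Its paralog Crebbp was higher by 1.20 (SE 0.16, adjusted p = 0.00304), at 384, 385 and 464 CPM against 139, 208 and 189 CPM. In In/B Crebbp stood at 358, 311 and 282 CPM, so every RA-sufficient library lay below every In/B library. For all 3 of these genes every RA-deficient library lay above every RA-sufficient library. They were named by their p, and the 3 coregulators called lower are not among them.

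Against In/B, 3 of the 20 were called higher and 6 lower in RA-sufficient PL (median -0.42), where 45.4% of all genes were called. In RA-deficient PL 4 were called higher and 6 lower (median -0.12), where 23.2% of all genes were called. Ncoa5, a coregulator with both activating and repressing parts, rose in both PL groups, by 1.50 on the log2 scale in RA-sufficient PL (SE 0.15, adjusted p = 5.50e-05) and by 2.16 in RA-deficient PL (SE 0.14, adjusted p = 5.36e-05). Ep300 and Ncoa6 rose over In/B in RA-deficient PL, by 1.67 and 1.48. Tbl1x, a subunit of the NCOR corepressor complex, fell by 1.80 in RA-sufficient PL (adjusted p = 3.37e-05), and Prmt1, an arginine methyltransferase that acts as a coactivator, fell by 1.36 (adjusted p = 6.72e-05). Both were low in RA-deficient PL as well. Mean Tbl1x was 109 CPM in In/B, 30.0 in RA-sufficient PL and 41.2 in RA-deficient PL. Mean Prmt1 was 202, 76.0 and 74.1 CPM in the same order.

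The proteins that carry retinoids inside cells were represented by 4 genes. Crabp1, which binds RA in the cytoplasm, stood at 222, 118 and 117 CPM in In/B, at 10.4, 16.4 and 13.5 CPM in RA-sufficient PL, and at 50.4, 50.6 and 13.0 CPM in RA-deficient PL. As with Kit, RA-deficient replicate 3 lay among the RA-sufficient libraries. Crabp1 fell from In/B by 3.45 on the log2 scale in RA-sufficient PL (SE 0.31, adjusted p = 3.74e-05) and by 1.84 in RA-deficient PL (SE 0.51, adjusted p = 0.0235). The latter was lost without In/B replicate 1 (adjusted p = 0.0964). Fabp5, a carrier of fatty acids that can also deliver RA, was low throughout, at 1.98 CPM on average in RA-deficient PL against 6.02 in In/B and 6.16 in RA-sufficient PL, and was called lower there against both (adjusted p = 0.0333 and 0.0404). Crabp2 was called in no comparison.

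Genes that RA is known to induce gave a mixed picture. In RA-sufficient PL against In/B, 4 of 12 tested were called higher and 3 lower (median 0.04), against 45.4% of all genes called either way. In RA-deficient PL against In/B, 0 of 11 were called in either direction by edgeR (median 0.22), against 23.2% of all genes, and 1 reached an adjusted p below 0.05. Between the PL groups 1 of 11 was called higher in RA-deficient PL and 4 lower (median -0.53), against 15.5% of all genes. Crabp2 stands in both the carrier list and this one.

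Stra6, a membrane receptor for retinol uptake, stood at 0.06, 3.70 and 2.60 CPM in In/B, at 122, 87.2 and 81.3 CPM in RA-sufficient PL and at 7.68, 7.73 and 7.74 CPM in RA-deficient PL. The RA-deficient level was lower than the RA-sufficient level by -3.66 on the log2 scale (SE 0.24, adjusted p = 7.90e-04). Cyp26a1, the gene with the DR5 shown above, stood at 0.45, 0.23 and 0 CPM in In/B, at 13.8, 9.76 and 13.4 CPM in RA-sufficient PL and at 0, 0.48 and 1.18 CPM in RA-deficient PL, a difference between the PL groups of -4.48 (SE 1.09, adjusted p = 0.0257). That call was lost without any single RA-sufficient library or without RA-deficient PL replicate 2 (adjusted p = 0.0669 to 0.0865). Tgm2, a transglutaminase, was at 26.9 to 29.5 CPM in RA-sufficient PL and at 1.74 to 3.94 CPM in RA-deficient PL (difference -3.17, SE 0.37, adjusted p = 0.00221). All 3 genes were high in the same libraries in which the 9 Sertoli cell markers summed to between 2879 and 3741 CPM, and the part of those cells in these values was not tested.

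The germ cell genes known to follow RA did not share that pattern. Stra8, needed for a normal meiotic start, stood at 54.4, 165 and 150 CPM in In/B, at 444, 126 and 121 CPM in RA-sufficient PL and at 377, 365 and 81.5 CPM in RA-deficient PL. The PL groups overlapped and differed by 0.22 on the log2 scale (adjusted p = 0.840). Rec8, a meiotic cohesin, stood at 17.5, 98.4 and 96.1 CPM in In/B, 45.3, 32.1 and 30.0 CPM in RA-sufficient PL and 29.4, 39.5 and 5.86 CPM in RA-deficient PL (difference between the PL groups -0.53, adjusted p = 0.559). Kit fell by 3.45 from In/B to RA-sufficient PL (SE 0.26, adjusted p = 1.91e-05). It was called higher in RA-deficient PL, by 3.54 (adjusted p = 0.0443), but with RA-deficient replicate 3 alone the difference was -0.62 (adjusted p = 0.316). Without RA-deficient replicate 1 or 2 the adjusted p was 0.0988 or 0.0938, and without a single RA-sufficient library it was 0.122, 0.129 or 0.142.

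**Figure D4:**
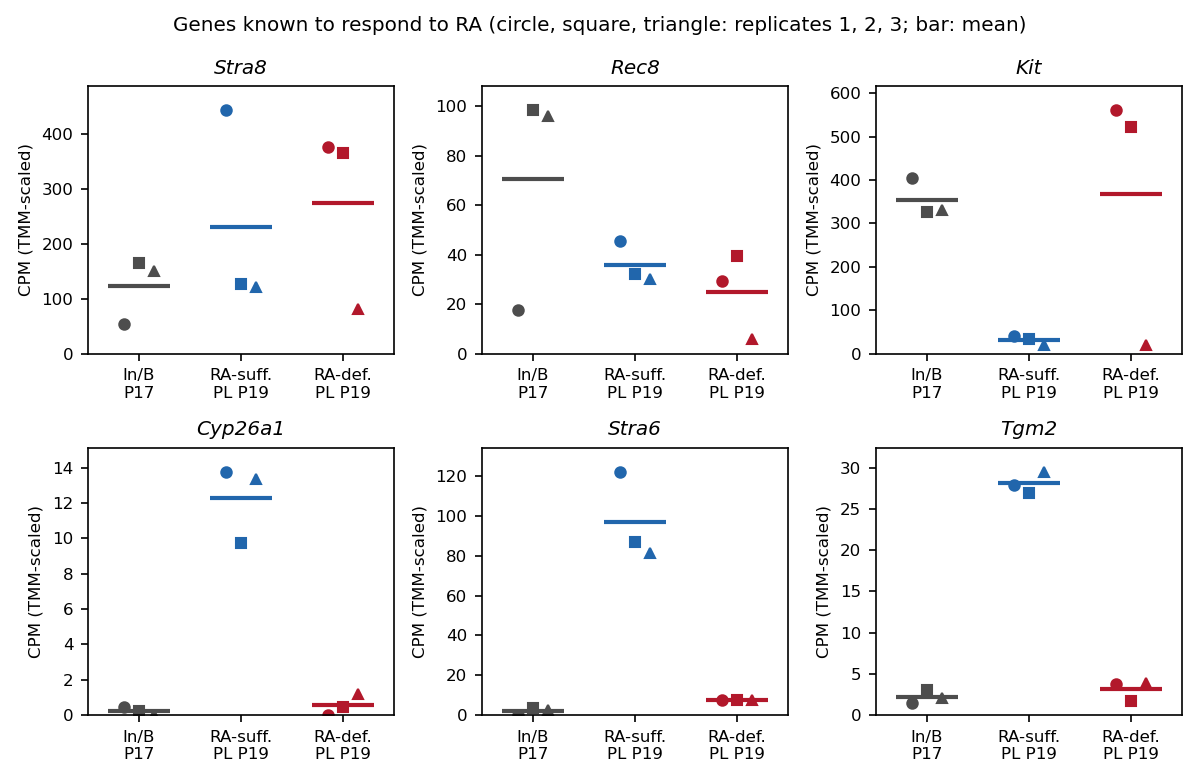
Each panel plots 1 gene known to respond to RA, with TMM-scaled CPM on a linear axis from 0, a point per library (circle, square and triangle for replicates 1, 2 and 3) and a bar at the group mean. Cyp26a1, Stra6 and Tgm2 were high in RA-sufficient PL only, while in RA-deficient PL the Kit and Stra8 values of replicate 3 (20.3 and 81.5 CPM) lay far under those of replicates 1 and 2.

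Receptors that pair with RXRs for other ligands were tested for 10 of the 13 listed. RA-sufficient PL against In/B gave 3 higher and 1 lower (median 0.33), RA-deficient PL against In/B gave 3 higher and 0 lower (median 0.66), and RA-deficient against RA-sufficient PL gave 1 of each (median -0.48). The shares of all genes called in these comparisons were 45.4, 23.2 and 15.5%. Pparg, the fatty acid receptor known from fat cells, stood at 1.6, 1.5 and 1.3 CPM in In/B, at 29.1, 40.1 and 47.5 CPM in RA-sufficient PL and at 62.9, 54.3 and 70.7 CPM in RA-deficient PL. It rose over In/B by 4.78 on the log2 scale in RA-sufficient PL (SE 0.27, adjusted p = 1.10e-05) and by 5.58 in RA-deficient PL (SE 0.23, adjusted p = 1.94e-05), with no overlap between any pair of groups. Nr4a1, an orphan receptor induced quickly by many stimuli, was higher in RA-deficient PL than in RA-sufficient PL by 1.98 (SE 0.30, adjusted p = 0.00511) and than in In/B by 1.62 (SE 0.28, adjusted p = 0.00294). Ppard, a receptor for fatty acids, was higher in RA-deficient PL than in In/B by 1.11 (adjusted p = 0.00286), and Nr1h3, a sterol receptor, was higher in RA-sufficient PL than in In/B by 1.47 (adjusted p = 0.00389). Vdr, the vitamin D receptor, stood at 103.5, 78.6 and 65.7 CPM in RA-sufficient PL and at 8.1, 5.9 and 6.6 CPM in RA-deficient PL (difference -3.60, SE 0.27, adjusted p = 7.90e-04), again high in the libraries with high Sertoli cell markers.

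Of 24 other nuclear receptors, 20, 20 and 21 were tested in the 3 comparisons. RA-sufficient PL against In/B gave 8 higher and 7 lower (median 0.09), RA-deficient PL against In/B gave 5 higher and 1 lower (median 0.46), and RA-deficient against RA-sufficient PL gave 4 of each (median 0.21), beside the same shares of all genes, 45.4, 23.2 and 15.5%. Nr2f2, an orphan receptor that can oppose RAR and RXR pairs, fell from 25.0 CPM in In/B to 2.75 in RA-sufficient PL (by 3.14 on the log2 scale, adjusted p = 1.07e-04) and to 2.89 in RA-deficient PL (by 2.94, adjusted p = 8.24e-04). Nr2c2, another orphan receptor, rose from In/B to RA-deficient PL by 2.24 (adjusted p = 0.00361). Mean Nr2c2 was high in both PL groups, at 119 CPM in RA-sufficient PL and 139 in RA-deficient PL, against 33.0 in In/B. Nr5a1 and Nr0b1, both known from steroid-producing and Sertoli cells, were lower in RA-deficient than in RA-sufficient PL by -3.26 (adjusted p = 8.15e-04) and -2.68 (adjusted p = 0.00155). Rora was also lower there, by -2.22 (adjusted p = 0.00467). From In/B to RA-sufficient PL, Nr0b1 rose by 4.82 (adjusted p = 7.68e-05). Nr5a1, Nr0b1 and Rora were high in the libraries in which Sertoli cell markers were high, and the part of those cells was not tested.

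**Figure D5:**
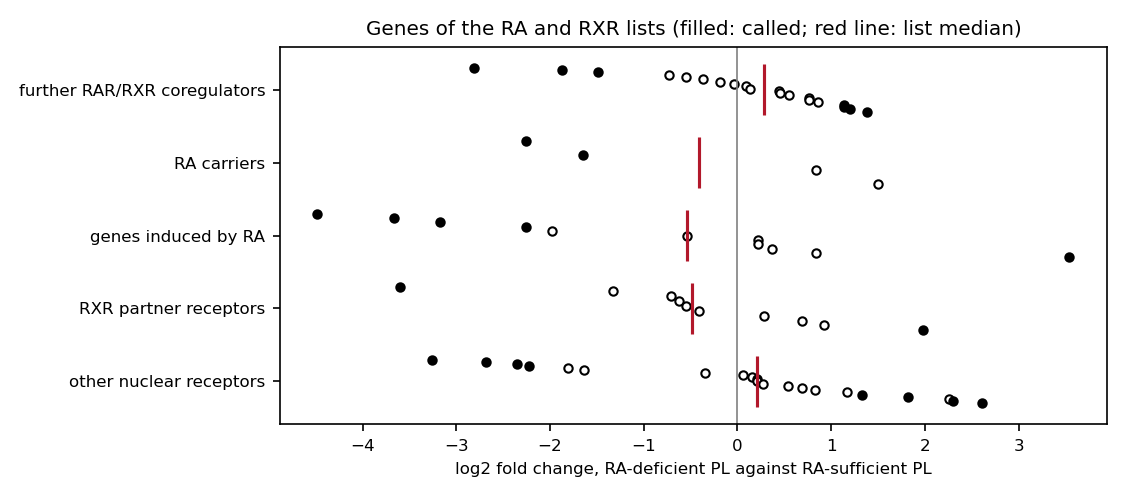
Each point is a tested gene, with the fitted log2 fold change of RA-deficient against RA-sufficient PL on the x axis and the 5 lists on the y axis. Filled points were called and red lines are list medians, from -0.53 for genes induced by RA to 0.29 for the further coregulators, with Cyp26a1 (-4.48) and Kit (3.54) at the ends.

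The genes whose levels followed each receptor most closely were sought by Pearson r of log2 CPM over the 9 libraries, among 14194 genes, as a description only, since all libraries share group and scaling. For Rarg they were Gse1 (r = 0.993), Pprc1 (r = 0.992) and Ldb1 (r = 0.991). Gse1 stood at 194 CPM on average in In/B, 39.5 in RA-sufficient PL and 169 in RA-deficient PL, which is the shape of Rarg itself. For Rxra they were Ppfia1 (r = 0.995), Cbx2 (r = 0.994) and Cdca7l (r = 0.994). For Rara and Rxrb, which varied less, the closest genes were Timm10 (r = 0.975) and Pick1 (r = 0.958), followed by Spg21 and Enc1 for Rara and by Ndufb6 and Diras1 for Rxrb.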

How the data were processed

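mRNA was sequenced from 9 libraries, 3 per group, each from sorted cells. The authors made stranded poly(A) libraries, trimmed single-end reads with cutadapt (version 1.9 in the submitters' processing notes), aligned them to mm9 with STAR (2.5.2b) and deposited raw counts per gene. The annotation and the strand setting of counting are not given in the sources used here. All 9 columns were matched by name and 0 were unused. Sources differ on whether the first dosing ended at P10 or P11.

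The counts were fitted for all genes, pair by pair, with edgeR 4.0.16 in R 4.3.3 (TMM scaling, filterByExpr, quasi-likelihood test, Benjamini-Hochberg adjustment). The filter left 15001 genes for RA-sufficient PL and 14877 for RA-deficient PL, each against In/B, and 15352 between the PL groups. It removed Rarb and Rxrg. Calls required an adjusted p below 0.05 together with a log2 fold change above 1 in size. SE is the log2 fold change divided by the root of the F statistic. Levels per kb are CPM over the exon length of GENCODE M1 (NCBIM37). Shares and ratios were tested with two-sided exact permutation over libraries. The scripts were tested on simulated data. Promoter sequences are from RefSeq (GRCm38.p6) and were matched to NCBIM37. The CPM to which 3 counts correspond reflects the scaled size of each library only and is not an interval of error. The study's methods name independent cell preparations.

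All 9 members are named. From each list, the up to 3 called genes with the smallest p per comparison and a mean of at least 5 CPM in 1 group are named, with Stra8, Rec8, Kit and the 3 genes most like each tested receptor (log2 of CPM plus 1). Of the genes this rule names, 3 are not reported here by themselves and count in the list results. Crabp2, Dmrt1 and Uchl1 were added after their values were seen. The members and lists were chosen with earlier results of these data known. Alternatives were RLE or library-size scaling, no filter or a mean of at least 50 counts, DESeq2 1.42.0, all 9 libraries in 1 fit, the replicate number as a block, other thresholds (adjusted p alone, at most 0.01, a test against a 2-fold change), and each library left out. RA-deficient PL replicate 3 alone was added after seeing the data. Figures were drawn with matplotlib 3.10.9.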

Additional observations from a re-analysis of the deposited data

Results flagged for a closer look

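Between the PL groups 5 of the 7 genes tested passed an adjusted p of 0.05 in edgeR, against 23.6% of all genes. Both PL groups were set against the same In/B libraries, from mice in which the inhibitor had been withdrawn. In/B cells of mice kept on the inhibitor were not measured, so the passage from In/B to PL could not be compared between the treatments. RA-deficient PL was higher in all 5. On the log2 scale the difference was 1.74 for Rarg, 1.16 for Rxra, 0.73 for Ncoa3, 0.63 for Ncoa1 and 0.51 for Ncor1. In each of them the 3 RA-deficient libraries lay above the 3 RA-sufficient libraries, and 47.4% of all genes did not overlap between these groups. All 6 general germ cell markers were higher in RA-deficient PL as well, with a median of 0.43 on the log2 scale. The part of germ cell RNA in these differences was not tested. Rxra passed in 8 and Ncor1 in 7 of 14 alternatives.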

How the results depend on the processing

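Rarg passed the test in all 13 alternatives against In/B in RA-sufficient PL and in all 14 between the PL groups. Of the alternative values for single genes, 241 kept direction and side of the threshold, 39 no longer passed, 4 newly passed and 3 turned: Rxrb in RA-sufficient PL against In/B (-0.11 without RA-sufficient PL replicate 3, up to 0.26 without other libraries), and Rara in RA-deficient PL against In/B (-0.17 with library size only, -0.0095 without In/B replicate 2, up to 0.41 without other libraries). None of these 3 passed the test, and the cause was not tested. By adjusted p alone, 4, 5 and 5 of 7 members passed in RA-sufficient PL against In/B, RA-deficient PL against In/B and between the PL groups, and 5459 and 3629 genes in the latter comparisons. Against a 2-fold change, 1 member and 1207 genes passed in RA-deficient PL against In/B, and 1 and 741 between the PL groups. An adjusted p of at most 0.01 left 1 member and 973 genes between the PL groups, and library size only left 1 member there. Leaving out a library gave 1 to 2 members and 1190 to 4484 genes between the PL groups. The member lost was Rxra, and the genes numbered 1227, 1190 and 1283 without RA-sufficient PL replicates 1, 2 and 3 and 4484 without RA-deficient PL replicate 3. RA-deficient PL replicate 3 alone gave 1 member between the PL groups and 6025 genes against In/B. Library size only moved the median of all genes by -0.32 in RA-deficient PL against In/B and by -0.18 between the PL groups, and the share of calls that were higher from 49.1 to 28.9% and from 28.8 to 17.5%. Shares and ratios kept the direction of each difference, and the exact permutation test over the groups gave p from 0.00357 to 0.0286 without single libraries, while the pairs of groups could not pass in any setting.

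Replicate numbers did not pair the libraries: same-numbered libraries of different groups deviated together with r from -0.27 to 0.13, over 0.1 in 2 of 9 pairs, against -0.16 to 0.22 for other pairs (14010 genes). With the replicate number as a block, 2, 3 and 2 members and 6373, 3208 and 1765 genes were called. Rxrb and Ncor1 in RA-deficient PL against In/B then had an adjusted p of 0.0948 and 0.0803. Rarb and Rxrg, which the filter left out, passed in none of the alternatives that tested them, and their low counts limit what could be detected.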
